A study of Homo sapiens with 3 samples.

Results

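The cytosolic ribosomal protein genes encode the protein part of the 80S ribosome outside mitochondria. They were chosen by name, as gene symbols that begin with RPL or RPS and a number, together with RPLP0, RPLP1, RPLP2 and RPSA, leaving out the RPS6K kinases and the Y-linked copies. The rule used no measured value, but the family was chosen with earlier results of these data known. The rule found 84 of the 26485 genes in the count table, 52 of the large and 32 of the small subunit. RNA was counted in 3 libraries of HEC1B, an established human endometrial cancer cell line, all at 48 h. The tested cells were PRMT6 knockdown cells, with 1 library for the siRNA named siPRMT6-1 and 1 for the siRNA named siPRMT6-2, and the control was 1 wild-type library with the siRNA named siNC. All 3 libraries carried an siRNA, and none is an untransfected sample. PRMT6 is an arginine methyltransferase that modifies histone H3 and other proteins. The siRNA sequences were not used here. The titles and the descriptions of the same samples number the PRMT6 siRNAs differently, so each value per siRNA rests on both labels being right.

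Ribosomal proteins fold around the ribosomal RNAs and are assembled with them in the nucleolus, nearly all in 1 copy per ribosome. Their messenger RNAs are among the most abundant of growing cells and typically begin with a C followed by a run of pyrimidines, the 5′ TOP element, through which mTORC1 and LARP1 set their translation and stability. Many of the genes carry small nucleolar RNAs in their introns, and most have processed pseudogenes elsewhere in the genome.

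An annotated transcript start is shown for some of the genes with the lowest or highest ratios to siNC in the results. It is also shown for the abundant RPLP1 and for 2 paralogs. The start typically carries the pyrimidine run by which the family is known. Each line gives 10 bases before and 20 bases from a start annotated by RefSeq on GRCh38.p14, 5′ to 3′ on the gene's strand. Capitals mark a run, defined as a C followed by at least 4 bases that are C or T and beginning within 5 bases of the start. Lines with no capitals hold no such run.
RPS10: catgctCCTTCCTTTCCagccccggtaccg
RPS6: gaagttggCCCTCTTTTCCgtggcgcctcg
RPS24: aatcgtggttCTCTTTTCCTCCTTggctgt
RPS16: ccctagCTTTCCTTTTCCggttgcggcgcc
RPS14: ccctcccaCTCTCTCTTTCCggtgtggagt
RPL10: ggaggagcgCCTCTTTCCCTTCggtgtggt
RPLP1: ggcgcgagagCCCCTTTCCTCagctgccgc
RPL6: gacggcgcgtgcactgtgttcctggtcctg
RPS4X: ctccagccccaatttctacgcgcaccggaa
RPS26: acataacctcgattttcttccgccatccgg
RPS29: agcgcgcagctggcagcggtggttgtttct
RPL22L1: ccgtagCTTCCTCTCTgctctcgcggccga
RPS27L: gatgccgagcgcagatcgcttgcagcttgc

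These lines lie at chr6:34426050-34426079 for RPS10, chr9:19380217-19380246 for RPS6, chr19:39435930-39435959 for RPS16 and chr5:150449720-150449749 for RPS14, all on the minus strand. RPS24 is at chr10:78033853-78033882, RPL10 at chrX:154398367-154398396 and RPLP1 at chr15:69452808-69452837, on the plus strand, as is RPS26 at chr12:56041908-56041937. RPL6 at chr12:112409266-112409295, RPS4X at chrX:72277229-72277258, RPS29 at chr14:49598691-49598720, RPL22L1 at chr3:170870176-170870205 and RPS27L at chr15:63157458-63157487 are on the minus strand. RPL6 and RPL10 have further annotated starts, which are not shown. The RPS29 line lies outside the gene model counted here, which spans chr14:49576672-49586416, so it may not be the start of the RNA counted. A promoter entry was found for 67 of the 84 genes, and 54 of them (80.6%) held the run at a start, against 25.2% of 27305 genes with an entry. Counted over promoters, the share was 58 of 83 (69.9%) for the ribosomal protein genes and 21.1% of 35116 in all. On the opposite strand of the same windows the shares were 13.3% and 18.6%. Among the genes tested, the 49 with a run had a median log2 fold change of −0.14 and the 10 with an entry but no run −0.36. With siPRMT6-1 these medians were −0.23 and −0.32, and with siPRMT6-2 −0.12 and −0.49. The set without a run includes RPS29 and RPL7L1, whose annotated starts lie outside their counted gene models. The part of the run in these values was not tested. The run was present both at RPS10, which was low with siPRMT6-2, and at RPS16, which was high with siPRMT6-1.

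The libraries held 381628 counts with siPRMT6-1, 362080 with siPRMT6-2 and 410916 with siNC. PRMT6 itself had 4 counts with siPRMT6-1, 7 with siPRMT6-2 and 25 with siNC. At this depth 3 counts, the floor used here for a count of 0, equal 8.09, 9.09 and 7.78 CPM (counts scaled to a common library size) in the same order. The siPRMT6-2 library stood apart in 12 interferon-stimulated genes, with 1804 counts, against 171 with siPRMT6-1 and 108 with siNC. Of the epithelial markers, KRT8 had 681, 770 and 1329 counts in siPRMT6-1, siPRMT6-2 and siNC and EPCAM had 5, 4 and 5, while KRT19 and CDH1 were at 0 in all libraries. The summed epithelial markers were 771, 869 and 1463 counts, and KRT8 and its low neighbour KRT18 share exon bases on opposite strands. Summed markers of leukocytes were 19, 57 and 17 counts, nearly all CD68, with PTPRC, CD3E and HBB at 0. Summed markers of fibroblasts were 360, 372 and 531, nearly all COL1A1, with COL1A2, COL3A1 and DCN at 0. Summed markers of endothelium were 18, 6 and 19, mostly PECAM1, with CDH5 and KDR at 0. The part of these differences in the ribosomal protein values was not tested.

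The ribosomal protein genes were slightly lower in sum than siNC in each knockdown library, and no single gene passed the test across all genes. Their summed counts were 6172 with siPRMT6-1, 5627 with siPRMT6-2 and 7371 with siNC, which is 1.62%, 1.55% and 1.79% of each library. Per library size the sums were 16650, 17050 and 19100 CPM, so both knockdown libraries lay below siNC and close to each other. Divided by siNC, the sum was 0.871 in the siPRMT6-1 library (0.842 to 0.902, a 95% exact binomial interval) and 0.892 in the siPRMT6-2 library (0.862 to 0.924). All genes tested together had ratios of 0.961 and 1.02. The ratio of siPRMT6-2 to siPRMT6-1 was 1.02 (0.988 to 1.06). These intervals cover counting error only and compare libraries, not conditions, since each siRNA has 1 library and both are set against the same siNC library. In bulk RNA, fewer cells of a type and less RNA per cell cannot be told apart.

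With edgeR's quasi-likelihood test and Benjamini-Hochberg adjustment, 0 of the 74 ribosomal protein genes with enough counts were called, and the share called among all 6803 genes was 0%. At an unadjusted p under 0.05 the test took 0 of the 74 and 2.73% of all genes (186 genes). DESeq2 also called 0. The older edgeR estimate called 32 genes and the edgeR likelihood ratio test 31 genes of all, none of them ribosomal protein genes. The median fitted log2 fold change over the 74 genes was −0.19, beside 0.04 for all genes tested. Among genes with at least 100 counts the medians were −0.21 for the 51 ribosomal protein genes and −0.06 for all genes, so abundant genes as a whole also lay lower. The standard error of a single gene was wider than that difference, at 0.39 for RPL6, the gene with the most counts. The other 10 genes had too few counts in every library for the test. The labels do not state separate cultures for the libraries, and the p-values therefore reflect no more than how these libraries differ.

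Direction was counted in each library. Lower than siNC in both knockdown libraries were 34 of the 74 genes (45.9%), beside 30.1% of all genes tested. Higher in both were 10 of the 74 (13.5%), beside 31.3% of all genes, and the remaining 30 went opposite ways with the siRNAs. Among the 51 genes with at least 100 counts over the 3 libraries, 27 (52.9%) were lower in both, beside 36.9% of all genes at that depth, and 4 (7.84%) were higher in both, beside 21.8%. With siPRMT6-1, 53 of the 74 genes were lower than siNC, beside 49.3% of all genes. With siPRMT6-2, 45 of the 74 were lower, beside 49.1%. The median log2 difference was −0.28 with siPRMT6-1 and −0.19 with siPRMT6-2, and 0.01 with each over all genes tested. At 100 or more counts it was −0.32 with siPRMT6-1, beside −0.05 over all genes of that depth, and −0.20 with siPRMT6-2, beside −0.09. The genes spread from −1.08 to 0.74 with siPRMT6-1 and from −1.17 to 0.61 with siPRMT6-2, so the small shift of the family sat inside a wide spread of its genes.

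**Figure D1:**
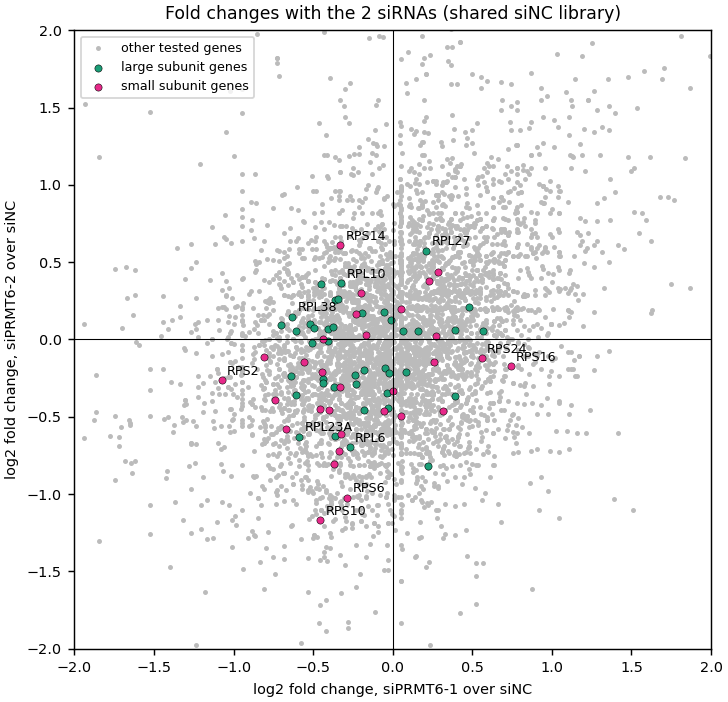
Log2 CPM difference from siNC with siPRMT6-1 (x axis) and siPRMT6-2 (y axis) of 5593 tested genes with at least 30 counts, 71 of them ribosomal protein genes (green large, pink small subunit). Both axes share the siNC library, and 89 other genes lie beyond the axes, which end at 2 in each direction. RPS10, RPS6, RPL6 and RPL23A sit lower left, RPS24 and RPS16 to the right and RPS14 and RPL10 at the upper left.

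The large subunit genes had 4292 counts with siPRMT6-1, 3983 with siPRMT6-2 and 5108 with siNC. Their ratio to siNC was 0.874 with siPRMT6-1 (interval 0.839 to 0.911) and 0.912 with siPRMT6-2 (0.874 to 0.95). The small subunit genes had 1880 counts with siPRMT6-1, 1644 with siPRMT6-2 and 2263 with siNC. Their ratios were 0.865 (0.813 to 0.919) and 0.849 (0.796 to 0.905), so both subunits were below siNC with both siRNAs and their intervals overlapped. The median log2 difference of the large subunit genes was −0.26 with siPRMT6-1 and −0.10 with siPRMT6-2. That of the small subunit genes was −0.31 with siPRMT6-1 and −0.24 with siPRMT6-2. Lower in both knockdown libraries were 19 of 44 large (43.2%) and 15 of 30 small subunit genes (50.0%), beside 30.1% of all genes tested.

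Levels per length differed widely within the family, although its proteins are needed in nearly equal numbers. On the scale of CPM per kilobase of exon, RPLP1, a stalk protein that helps recruit elongation factors, was at 1501 with siPRMT6-1, 1207 with siPRMT6-2 and 1539 with siNC. RPL6 was at 1423, 1059 and 1718, RPL38 at 833, 1438 and 1296, and RPS13 at 974, 1289 and 1146 in the same order. These genes changed places between libraries. RPL19, RPS25, RPL8, RPL11 and RPL26 also had high means, with levels between 417 (RPL26 with siPRMT6-1) and 790 (RPL19 with siNC). The lowest levels above 0 were those of RPL36A, RPL3L, RPL22L1, RPS27L and RPL39L, all of them genes that did not pass the filter. RPL36A had 3, 2 and 3 counts in siPRMT6-1, siPRMT6-2 and siNC, and the longer gene model RPL36A-HNRNPH2, which shares 454 of its exon bases, had 10, 6 and 7. The gene model of RPL21 has copies on other sequences, as have those of RPS9 and RPS18, and the length of such a model sums its copies, which lowers their level per length. Single models also differ in the exon length that divides the counts, with 392 bases for RPL38, 512 for RPLP1, 3314 for RPS23 and 4879 for RPL27A. The median level in siNC was 264 for tested genes with under 10 pseudogenes and 156 for those with 10 or more. How far model length and shared reads shape these levels was not tested.

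**Figure D2:**
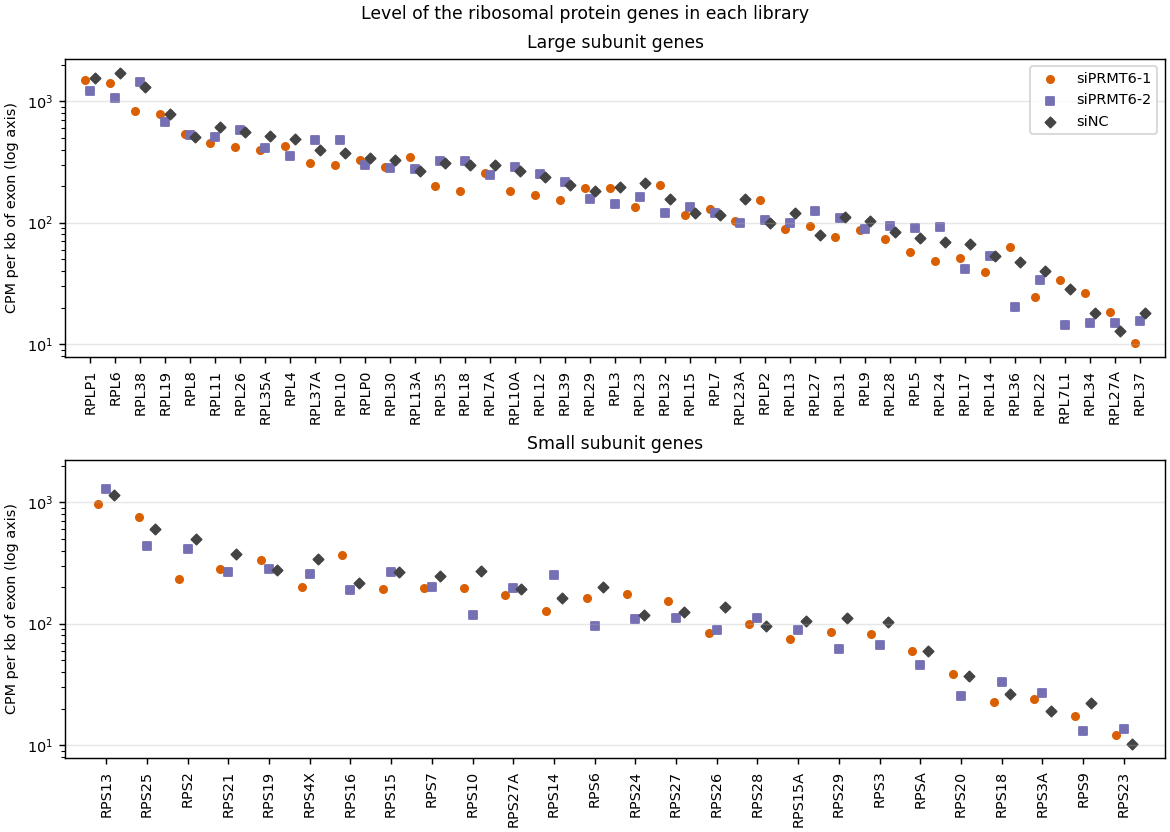
Level per exon length (CPM per kb, log axis) of 69 of the 74 tested ribosomal protein genes in siPRMT6-1 (orange circles), siPRMT6-2 (violet squares) and siNC (dark diamonds), large subunit above and small subunit below, ordered by the mean. RPLP1, RPL6, RPL38 and RPS13 have the highest means, and RPS23, RPL27A and RPL37 below 20 in all.

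Of the 10 lowest mean fold changes in the family, 7 were those of small subunit genes, which made up 30 of the 71 genes ranked. Small subunit genes were also among the highest, namely RPS3A and RPS23. RPS10, a protein of the small subunit head near the messenger RNA entry, had 64 counts with siPRMT6-1, 34 with siPRMT6-2 and 92 with siNC. Its CPM ratio to siNC was 0.724 (0.518 to 1.01) with siPRMT6-1 and 0.432 (0.283 to 0.647) with siPRMT6-2, the lowest value of siPRMT6-2 among the tested genes with at least 100 counts in the family. RPS10-NUDT3, a readthrough gene model that shares 550 exon bases with RPS10, had nearly the same counts, 67, 36 and 92, so these are in the main the same reads counted in both. The fitted log2 fold change of RPS10 was −0.79 ± 0.46 (SE), with the lowest unadjusted p of the family, 0.111, and an adjusted p of 1 in edgeR's quasi-likelihood test with Benjamini-Hochberg adjustment. RPS6, the substrate of the S6 kinases, had 50 counts with siPRMT6-1, 26 with siPRMT6-2 and 64 with siNC. Its ratio was 0.813 (0.55 to 1.2) with siPRMT6-1 and 0.475 (0.289 to 0.76) with siPRMT6-2, so that, as for RPS10, only the siPRMT6-2 interval lay below 1. RPS29 had 48, 31 and 65 counts in the same order and RPS9, at the messenger RNA entry, 46, 31 and 61. Their siPRMT6-2 ratios were 0.558 (0.351 to 0.868) and 0.594 (0.373 to 0.93).

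RPS2, which lines the messenger RNA entry channel and is itself methylated on arginines by PRMT3, had the opposite pattern. It had 81 counts with siPRMT6-1, 128 with siPRMT6-2 and 180 with siNC. Its ratio was 0.468 (0.356 to 0.612) with siPRMT6-1, the lowest of that library among the genes with at least 100 counts, and 0.831 (0.657 to 1.05) with siPRMT6-2. RPS4X, a small subunit protein encoded on the X chromosome, had 71, 81 and 125 counts and ratios of 0.591 (0.435 to 0.797) and 0.757 (0.566 to 1.01). RPS26, at the messenger RNA exit, had 21, 20 and 36 counts, lower in both knockdown libraries but with intervals that hold 1. RPS3, at the messenger RNA entry, had 84, 61 and 110 counts, with a siPRMT6-2 ratio of 0.648 (0.466 to 0.894).

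Other small subunit genes were higher in 1 knockdown library. RPS16 had 80 counts with siPRMT6-1, 37 with siPRMT6-2 and 49 with siNC. Its ratio was 1.7 (1.18 to 2.48) with siPRMT6-1 and 0.883 (0.56 to 1.38) with siPRMT6-2. RPS24, whose mutations cause Diamond-Blackfan anaemia, had 192, 106 and 135 counts in the same order and ratios of 1.48 (1.18 to 1.86) and 0.918 (0.705 to 1.19). RPS16 and RPS24 thus had intervals above 1 with siPRMT6-1 and intervals that hold 1 with siPRMT6-2. RPS14, the gene lost in the 5q- syndrome, had 37 counts with siPRMT6-1, 65 with siPRMT6-2 and 49 with siNC. Its siPRMT6-2 ratio was 1.55 (1.05 to 2.29) and its siPRMT6-1 ratio 0.786 (0.499 to 1.23). RPS3A had 18, 18 and 15 counts and RPS23, near the decoding centre, 15, 15 and 13. They were 2 of the 5 highest mean fold changes in the family, but their counts are too few to tell them from siNC.

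In the large subunit, RPL6 alone had an interval below 1 with both siRNAs. It had 596 counts with siPRMT6-1, 395 with siPRMT6-2 and 749 with siNC. Its ratio was 0.828 (0.742 to 0.923) with siPRMT6-1 and 0.616 (0.544 to 0.697) with siPRMT6-2, and its fitted log2 fold change was −0.47 ± 0.39 (SE), with an adjusted p of 1 in edgeR's quasi-likelihood test with Benjamini-Hochberg adjustment. An interval below 1 with both siRNAs was found for 1 of the 74 genes, beside 2.16% of all genes tested and 5.78% of those with at least 100 counts. RPL6 had 10.2% of the family's counts in siNC, and without it the family's ratios were 0.876 (0.845 to 0.908) with siPRMT6-1 and 0.924 (0.891 to 0.958) with siPRMT6-2.

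RPL23A, which lies at the exit of the nascent chain tunnel, had 37, 32 and 59 counts in siPRMT6-1, siPRMT6-2 and siNC and ratios of 0.653 (0.421 to 1.0) and 0.634 (0.399 to 0.991). TLCD1, transcribed the other way and with 9 exon bases in common, had 29, 29 and 25 counts. RPL17, also at the tunnel exit, had 22, 16 and 30 counts, and its readthrough model RPL17-C18orf32 20, 12 and 22. RPL4, which lines the tunnel, had 228, 167 and 269 counts and a siPRMT6-2 ratio of 0.726 (0.595 to 0.884). The stalk gene RPLP1 had 285, 204 and 304 counts and a siPRMT6-2 ratio of 0.784 (0.654 to 0.94). With siPRMT6-1 the ratio was 0.882 (0.736 to 1.06) for RPL4 and 0.976 (0.827 to 1.15) for RPLP1, so both intervals held 1. The stalk genes RPLP0, RPLP1 and RPLP2 together had ratios of 0.994 (0.873 to 1.13) and 0.826 (0.718 to 0.951).

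RPL38, for which mutant mice show altered translation of Hox messenger RNAs, had 121 counts with siPRMT6-1, 186 with siPRMT6-2 and 196 with siNC. Its ratio was 0.642 (0.508 to 0.81) with siPRMT6-1 and 1.11 (0.903 to 1.36) with siPRMT6-2. RPL11, which binds the 5S ribosomal RNA with RPL5 and can inhibit MDM2, had 106, 107 and 150 counts and ratios of 0.735 (0.568 to 0.949) and 0.834 (0.645 to 1.08). RPL13, RPL26 and RPL18 also had siPRMT6-1 intervals below 1, with ratios of 0.735, 0.749 and 0.606, while RPL26 and RPL18 were at 1.05 and 1.07 with siPRMT6-2. RPL13A, part of an interferon-gamma-activated complex that silences translation, had 153, 108 and 121 counts and a siPRMT6-1 ratio of 1.32 (1.03 to 1.68). RPL27 with 17, 20 and 15 counts, RPL27A with 33, 24 and 24 and RPLP2 with 28, 17 and 19 completed the 5 highest mean fold changes, all with intervals that hold 1.

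Over the family, 12 of the 74 genes had a siPRMT6-1 interval below 1, beside 7.14% of all genes tested, and 4 had one above 1, beside 5.89%. With siPRMT6-2, 11 lay below 1, beside 8.82%, and 2 above, beside 9.73%. Since intervals narrow with depth, the comparison was also made among the 51 genes with at least 100 counts. There 23.5% lay below 1 with siPRMT6-1, beside 15.5% of all genes at that depth, and 21.6% with siPRMT6-2, beside 20.1%. Above 1 lay 7.84% with siPRMT6-1, beside 9.1%, and 3.92% with siPRMT6-2, beside 11.7%. The share below 1 with siPRMT6-2 was thus near that of other genes of like depth. Between the knockdown libraries, siPRMT6-2 was higher than siPRMT6-1 by this measure for 12 genes, beside 11.3% of all genes tested, and lower for 8, beside 9.61%. RPL10, RPL38, RPL18 and RPS2 were among the 12, and RPS16, RPS24, RPS10 and RPS6 among the 8. At 100 or more counts these are 23.5% and 15.7% of the family, beside 17.8% and 19.2% of all genes of that depth, so such differences between the knockdown libraries were about as common in other genes.

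**Figure D3:**
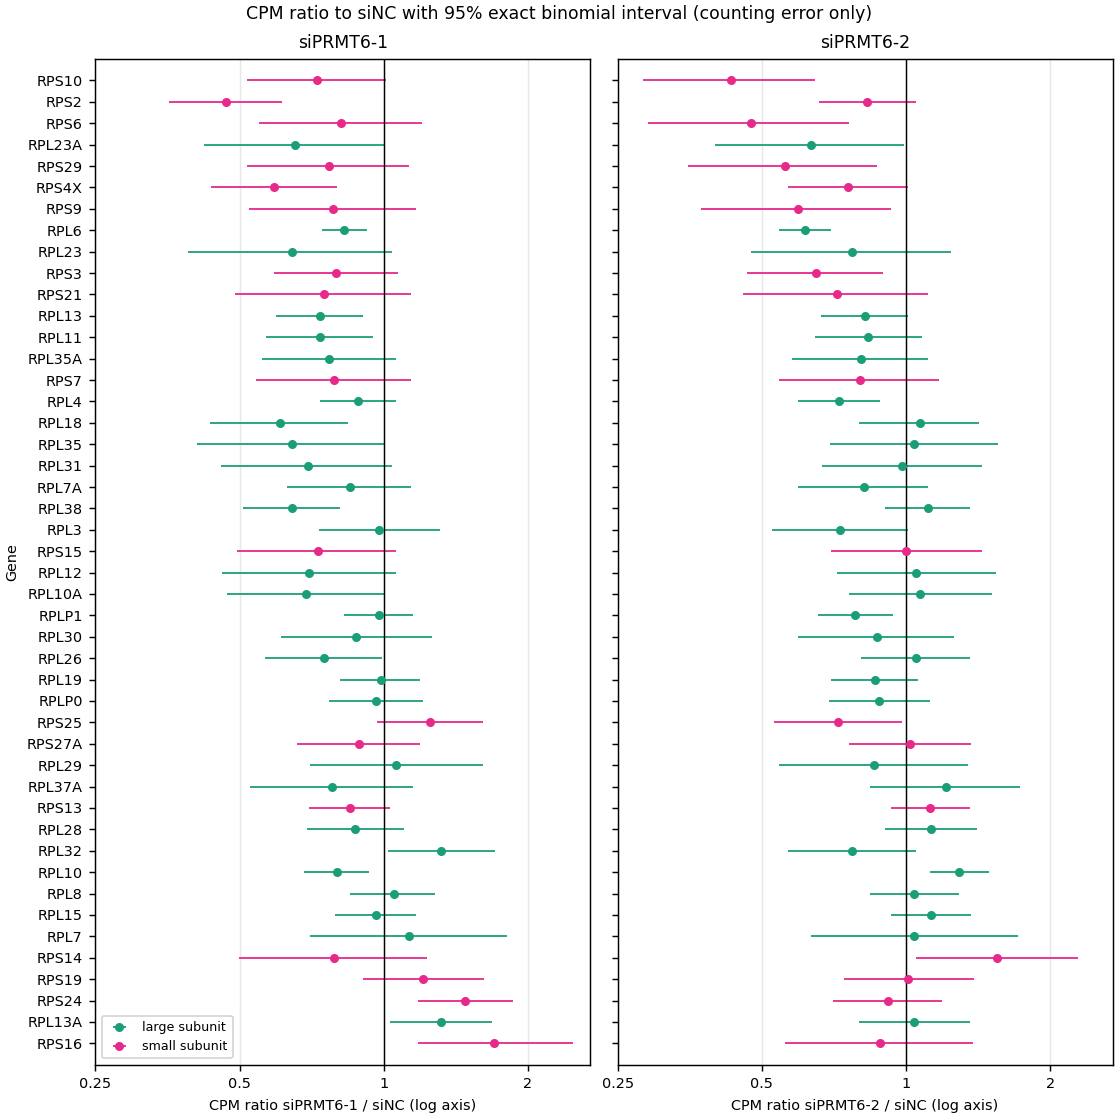
CPM ratio to siNC (log axis) of 46 of the 51 ribosomal protein genes with at least 100 counts, with siPRMT6-1 on the left and siPRMT6-2 on the right, ordered by the mean log2 difference, with 95% exact binomial intervals for counting error. The lowest genes differ between the panels, RPS2 at 0.468 on the left and RPS10 at 0.432 on the right, and RPL6 lies below 1 in both.

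Exon overlap bears on what some of these counts stand for. Per the file headers reads were counted with a strand setting of 1, and a read in several genes was added to each. If that strand was opposite to the transcripts, all counts are affected, also those of genes without a partner. Of the 6803 genes tested, the 1969 with opposite-strand exon overlap held 48.4%, 46.8% and 50.6% of the counts in siPRMT6-1, siPRMT6-2 and siNC. Which strand the counts stand for was not tested, so the levels and ratios given here may not be those of the messenger RNAs. RPL35 had 34, 49 and 55 counts in siPRMT6-1, siPRMT6-2 and siNC, and WDR38, an opposite-strand gene with 13 exon bases in common, had 382, 306 and 463. RPL10, a protein that joins the large subunit late, had 286, 411 and 373 counts, and its opposite-strand partner DNASE1L1, with 1104 shared bases, had 45, 42 and 33. The first pair has most counts on the partner and the second on the ribosomal protein gene. RPS25 had 138, 71 and 115 counts and its partner CCDC84 had 55, 42 and 73, with 46 shared bases. RPL15 had 201, 210 and 217, RPL18 60, 94 and 103 and RPS27A 87, 89 and 102, and their opposite-strand partners NKIRAS1, SPHK2 and CLHC1 had at most 17 counts in any library.

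The 7 genes with such overlap and the 77 without it differed in their siPRMT6-2 sums. With overlap the sums were 843, 956 and 1024 counts, and the ratio to siNC was 0.857 (0.781 to 0.939) with siPRMT6-1 and 1.09 (0.998 to 1.19) with siPRMT6-2. Without overlap they were 5329, 4671 and 6347 counts, and the ratios were 0.874 (0.842 to 0.906) and 0.86 (0.828 to 0.894). RPL10 alone, with a siPRMT6-2 ratio of 1.29 (1.12 to 1.49) and a siPRMT6-1 ratio of 0.798 (0.682 to 0.933), held much of the first set, and the other 6 genes had a siPRMT6-2 ratio of 0.979 (0.872 to 1.1). The median fitted log2 fold change was −0.07 with overlap and −0.19 without, beside −0.03 for all tested genes with overlap and 0.08 for all without. In the larger GENCODE 29 annotation 15 of the genes have opposite-strand overlap, and the 69 without it had ratios of 0.877 (0.844 to 0.91) and 0.856 (0.823 to 0.89).

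Small RNAs inside exons of the same strand added counts to some genes. SNORA7A, a small nucleolar RNA of 139 bases that lies wholly in exon bases of RPL32 in the deposited gene models, had 106 counts with siPRMT6-1, 39 with siPRMT6-2 and 76 with siNC. RPL32 had 142, 74 and 112, and the difference of the counts was 36, 35 and 36. The siPRMT6-1 ratio of RPL32 was 1.32 (1.02 to 1.71), and that of the counts outside SNORA7A was 1.04 (0.637 to 1.7), so the difference between libraries was in reads that also count for the small nucleolar RNA. MIR4426, which shares 60 exon bases with RPS27A, had 55, 62 and 69 counts, and part of its gene model lies elsewhere. The 54 small nucleolar RNA genes within 27 of the ribosomal protein genes summed to 308 counts with siPRMT6-1, 151 with siPRMT6-2 and 214 with siNC. Their ratio was 1.5 (1.25 to 1.79) with siPRMT6-1 and 0.825 (0.665 to 1.02) with siPRMT6-2. Without SNORA7A the ratios were 1.52 (1.22 to 1.91) and 0.949 (0.733 to 1.23). The host genes themselves had ratios of 0.863 (0.815 to 0.913) and 0.933 (0.881 to 0.987), so with siPRMT6-1 the summed small nucleolar RNAs were above siNC and their summed hosts below it. All 411 small nucleolar and Cajal body RNA genes of the table together had ratios of 1.24 (1.18 to 1.3) and 1.23 (1.17 to 1.29), so with siPRMT6-1 a sum above siNC was not limited to those inside ribosomal protein genes. In RPL13A, with 4 of these RNAs in its introns, both were highest with siPRMT6-1, the small RNAs at 66, 38 and 39 counts and the gene at 153, 108 and 121.

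**Figure D4:**
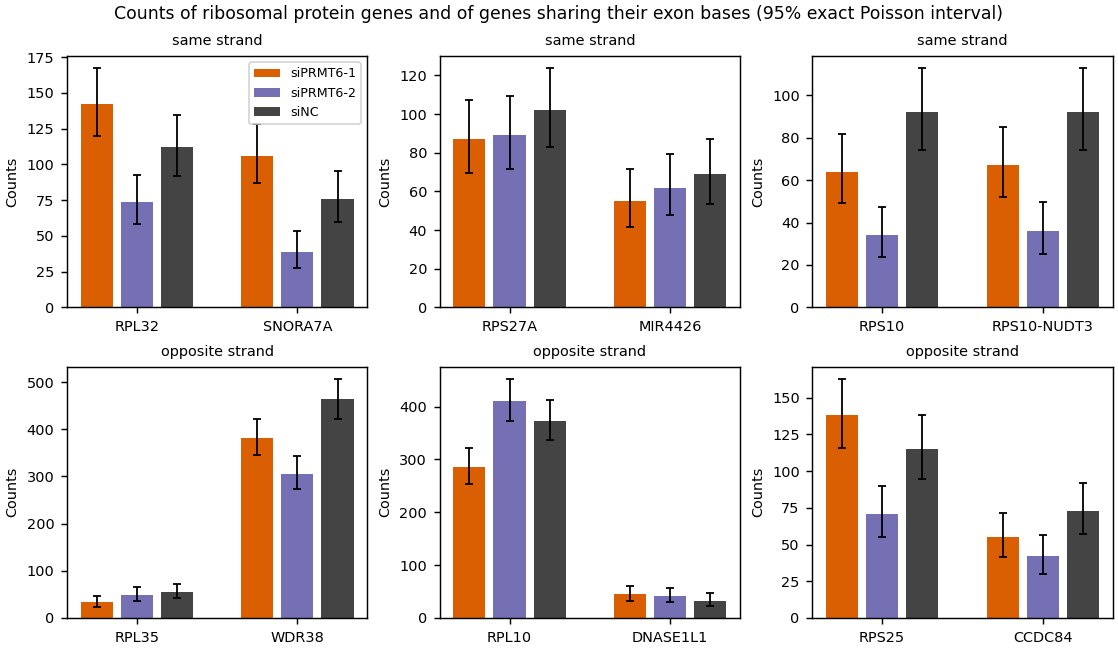
Counts in siPRMT6-1 (orange), siPRMT6-2 (violet) and siNC (dark) of 6 ribosomal protein genes and of a gene that shares exon bases with each on the same strand (upper row) or the opposite strand (lower row), with 95% exact Poisson intervals. SNORA7A follows RPL32 and RPS10-NUDT3 matches RPS10, while WDR38 far exceeds RPL35 and DNASE1L1 stays far below RPL10.

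Of the 7 paralogs, which stand in for or resemble a canonical gene and are often restricted to certain tissues, 6 had at most 6 counts in any library. RPL10L, known for its role in the testis, had 0 counts in all libraries. The floor for such a count is 8.09 CPM with siPRMT6-1, 9.09 with siPRMT6-2 and 7.78 with siNC. RPL3L, known from striated muscle, had 3, 0 and 2 counts, RPL39L 1, 1 and 4, and RPL26L1 2, 2 and 5. RPL22L1 had 2, 1 and 6 counts, against 19, 23 and 32 for RPL22. RPS27L, a p53 target, had 1, 4 and 0 counts, against 20, 13 and 17 for RPS27. RPL7L1 was the only paralog tested, with 16, 6 and 14 counts, and acts in ribosome assembly. Together the 7 paralogs had 25, 14 and 31 counts, too few to tell the libraries apart. The other genes under the filter were RPL21, RPL41, RPS12 and RPL36A, with at most 8 counts in any library. All are textbook components of the ribosome, and 40 of the 84 genes have 10 or more pseudogenes in GENCODE 29, which can share their reads.

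Other genes of the translation machinery were read from lists. The 39 translation elongation and initiation factors summed to 4258 counts with siPRMT6-1, 3633 with siPRMT6-2 and 5021 with siNC. Their ratios to siNC were 0.883 (0.847 to 0.92) and 0.846 (0.81 to 0.883), in the range of the ribosomal protein genes. The medians of their 37 tested genes were −0.05 with each siRNA, so the sums were low through a few abundant genes. PABPC1, the poly(A)-binding protein, whose messenger RNA is itself of the TOP class, had 1157, 756 and 1443 counts. EEF2 and EEF1A1, the elongation factors for translocation and for delivery of aminoacyl-tRNA, had 752, 724 and 1010 and 562, 510 and 664. Of these 37 genes, 16 (43.2%) were lower and 8 (21.6%) higher than siNC in both knockdown libraries, beside 30.1% and 31.3% of all genes tested. Among them edgeR's quasi-likelihood test with Benjamini-Hochberg adjustment called 0, as among all genes tested.

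GNB2L1, which encodes the small subunit scaffold RACK1, had 515, 429 and 609 counts, and FAU, which encodes a small subunit protein fused to a ubiquitin-like part, 211, 143 and 257. NACA, of the nascent chain-associated complex, had 29, 39 and 40. FAU shares exon bases with MRPL49 on the opposite strand. The 77 genes of the mitochondrial ribosome, a separate particle, had summed ratios of 0.956 (0.878 to 1.04) and 0.964 (0.883 to 1.05), and the 34 tested among them medians of −0.02 and −0.12. MRPL49 with 119, 143 and 186 counts, MRPL57 with 145, 125 and 164 and MRPS18C with 48, 54 and 41 had the most counts among them. Like MRPL49, MRPL57 and MRPS18C share exon bases with opposite-strand genes. Of the 34 tested, 12 (35.3%) were lower and 7 (20.6%) higher than siNC in both knockdown libraries, beside 30.1% and 31.3% of all genes tested.

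The ribosome biogenesis genes had ratios of 0.873 (0.807 to 0.944) and 1.13 (1.04 to 1.21). HEATR1, with 121, 276 and 227 counts, was the most abundant of them, followed by NOC2L with 76, 69 and 91 and BOP1 with 77, 66 and 65. HEATR1 shares exon bases with LGALS8, an opposite-strand gene, and without HEATR1, left out after its values were seen, the ratios were 0.935 (0.86 to 1.02) and 1.07 (0.982 to 1.16). Of 37 tested, 11 (29.7%) were lower and 8 (21.6%) higher in both knockdown libraries. Over all genes tested the shares were 30.1% and 31.3%, which also stand beside those of the lists that follow. The RNA polymerase I genes, which make ribosomal RNA, had ratios of 1.01 (0.869 to 1.16) and 0.962 (0.826 to 1.12), with 4 of 12 (33.3%) lower and 4 (33.3%) higher in both. CD3EAP had 97, 82 and 99 counts, POLR2E, shared with the other polymerases, 55, 47 and 67, and UBTF 32, 24 and 31. CD3EAP and POLR2E share exon bases with opposite-strand genes, as does NOC2L above. The mTORC1 and S6 kinase genes had ratios of 0.785 (0.678 to 0.909) and 0.996 (0.864 to 1.15), with 5 of 11 (45.5%) lower and 3 (27.3%) higher in both. LARP1, which binds TOP messenger RNAs, had 91, 126 and 163 counts, MYC 34, 64 and 48 and RPTOR 38, 39 and 37. None of these genes was called by edgeR's quasi-likelihood test with Benjamini-Hochberg adjustment.

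**Figure D5:**
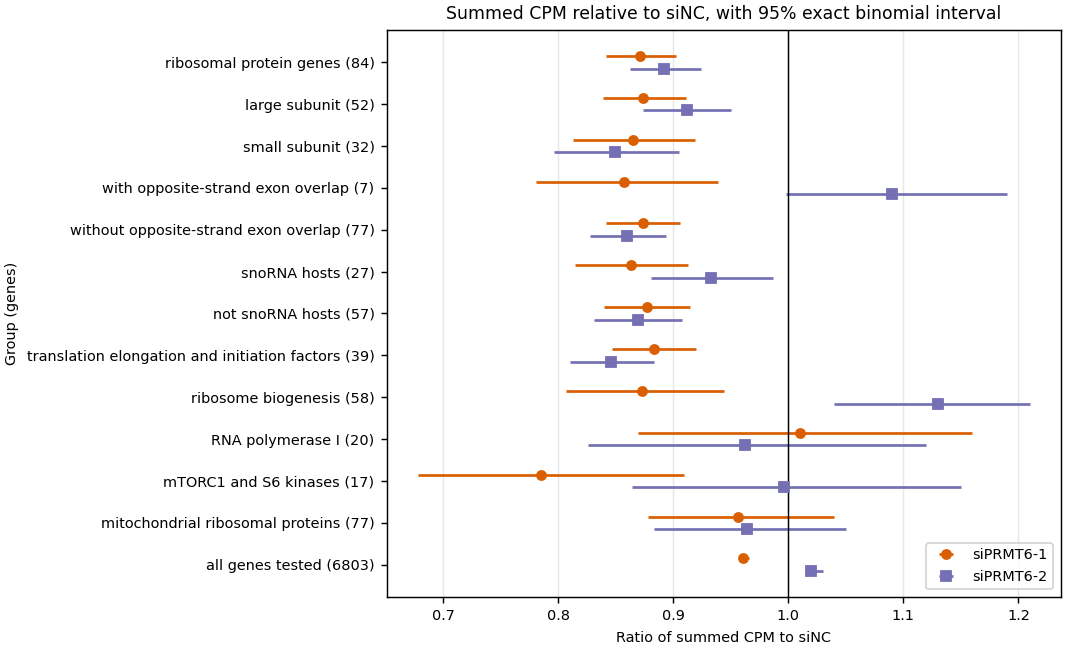
Ratio of summed CPM to siNC for the ribosomal protein genes, their subsets, related gene lists and all genes tested, with siPRMT6-1 (orange circles) and siPRMT6-2 (violet squares) and 95% exact binomial intervals for counting error. The ribosomal protein genes lie at 0.871 and 0.892, the translation factors at 0.883 and 0.846, and the genes with opposite-strand overlap and of ribosome biogenesis lie on opposite sides of 1 with the siRNAs, with RPL10 and HEATR1 included.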

How the data were processed

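The authors deposited raw whole-number counts for each gene. Per the submitters' processing notes, STAR 2.7.8a (alignment to hg38) and featureCounts 2.0.10 (counting) were used, whereas the file header names 2.0.1. Per the labels' protocols, libraries were made from 10 ng of total RNA with a stranded kit. Per the file headers, pairs were counted by gene name with strand setting 1 and a read in overlapping genes went to each, which raises shared counts. The names of the aligned files in the header carry marks of UMI-based duplicate removal, and its settings are not given in the sources used here.

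All 26485 genes were fitted with edgeR 4.0.16 in R 4.3.3, quasi-likelihood test, TMM, filterByExpr with a minimum count of 10 and total of 15, both knockdown libraries against siNC, two-sided, Benjamini-Hochberg adjusted p under 0.05. The lone control was taken to be as variable as the knockdown libraries, with 1 residual degree of freedom, a prior of 12.8 and a common coefficient of variation of 31.6%. The filter kept 6803 genes. The fit was also run on simulated counts with changes far larger than the family's shift, so that run does not bear on shifts of that size. For each siRNA, log2 CPM was compared with siNC after adding a prior count of 2. Intervals are at 95%, from SciPy 1.17.1, and floors use 3 counts per library, less than the upper limit of 3.69 counts in the exact interval for a count of 0. DESeq2 1.42.0, other scalings, filters and gene subsets were alternatives. Exon overlap came from the deposited gene models and GENCODE 29, promoters from RefSeq.

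Members and lists were chosen with earlier results of these data known. Named were the 10 highest and 5 lowest levels per length, the 10 lowest and 5 highest mean fold changes among members with at least 30 counts, members whose interval lacks 1, members with opposite-strand partners, paralogs, members at 0, and the 3 genes of most counts in each other list. Other genes named were chosen after their values were seen. The single values of 5 members are not reported here, and these members stay in all sums, counts and medians.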

Additional observations from a re-analysis of the deposited data

How the results depend on the processing

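No paired analysis was made, since the labels name no pairs among the libraries. Of 75 alternative values, 61 differed by less than the spread and 14 moved. The margin differed between results, so the 61 do not measure stability. Without the siPRMT6-2 library, the median of genes with opposite-strand overlap went from −0.07 to −0.33 and stayed within its margin. The family's median went from −0.19 to −0.29 and counted as moved. The sign turned in 1 of the 61, the median of genes with opposite-strand overlap, when the siPRMT6-1 library was left out. The number of ribosomal protein genes called stayed at 0 under every other scaling, filter and tool tried, and it was not refitted with a knockdown library left out, since no residual degree of freedom remains. Leaving out each knockdown library in turn gave medians of −0.29 to −0.20 for the family, −0.32 to −0.25 for the small subunit, −0.26 to −0.11 for the large subunit, −0.27 to −0.22 for genes without opposite-strand overlap and −0.33 to 0.06 for those with it. It gave 45 genes (siPRMT6-2 alone) to 53 genes (siPRMT6-1 alone) lower than siNC. The small subunit median was −0.32 when genes with opposite-strand overlap were left out of the fit. In alternatives added after seeing the data, it was −0.33 without GENCODE 29 overlap. Without a filter the median of all genes moved to 0.10. Summed CPM with library totals was 17230 with siPRMT6-1 and 16560 with siPRMT6-2, so the order of the siRNAs turned, with ratios to siNC of 0.906 and 0.871. Without overlapping genes the sums were 14370, 14150 and 16450 CPM in siPRMT6-1, siPRMT6-2 and siNC, and without RPL6, a subset also added later, 15040, 15850 and 17160. With 1 library per siRNA and under 100 counts for 33 of the 84 genes, differences of the family's genes were mostly not detectable with this design. Depth was not the only limit, since the test takes its spread from the 2 different siRNA libraries. RPL6, the gene with the most counts, still had a standard error of 0.39. Even IFI6, with 0 counts with siPRMT6-1, 330 with siPRMT6-2 and 0 with siNC, was not called.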
